A study of Homo sapiens with 26 samples.

Results

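The 45 genes described here encode the core machinery of DNA replication. They were chosen by name, as a list of symbols for the origin, helicase, polymerase, clamp, single-strand binding, fragment-joining and nucleotide-supply proteins. No measured value entered the rule, but earlier results of these data were known when the list was made. All 45 symbols were found among the 33562 genes of the expression table, and all 45 reached the minimum level used for testing, at least 1 RPKM in 2 or more libraries, as did 12589 genes in all. RPKM is the number of reads scaled to transcript length and to the mapped reads of the library. It does not remove differences in the composition of libraries, so levels compare less directly between libraries of unlike composition.

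Replication begins where the origin recognition complex, ORC, sits on DNA. CDC6 and CDT1 load the MCM2-7 helicase there in G1 phase, geminin (GMNN) blocks further loading, and CDC45 and the GINS complex then activate the helicase as S phase starts. DNA polymerase alpha and primase lay primers, polymerases delta and epsilon extend them on the PCNA clamp that replication factor C loads, and replication protein A covers the exposed single strand. Many of these genes are transcribed together near the start of S phase under E2F factors, so their RNA is widely used as a readout of proliferation.

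The cells were MDA-MB-231Luc, made from MDA-MB-231, a human breast cancer line without estrogen receptor, progesterone receptor or ERBB2 amplification, and the study placed the kinase AURKA in different compartments of the cell. All 9 lines carried a doxycycline-inducible mRFP vector and were grown with doxycycline. The 3 control lines, Empty, NES-Empty and NLS-Empty, carried the control guide sgCon and a vector without AURKA at passage 19 to 20. The 6 AURKA lines, at passage 32 to 35, were WT-AURKA c1 and c2 and NES-AURKA c1 and c2 (all MUT2 with guide sgAURKA2), and NLS-AURKA c2 and c3 (MUT1 with guide sgAURKA1). NES denotes a nuclear export signal and NLS a nuclear localization signal. Each AURKA line was taken here as 1 clone. Guide, passage and clonal derivation differed between the AURKA and control arms together, so they cannot be told apart from AURKA placement, and NLS-AURKA also differed from the other constructs in its guide.

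There were 26 libraries of polyadenylated RNA, 3 for each line except WT-AURKA c2, which had 2. Every library carried a letter, and 8 lines had 1 library lettered A to H and 2 lettered I to Z, while WT-AURKA c2 had only Q and R. What the letters mark is not stated. The 8 A to H libraries had 22229 to 24418 genes above 0 and the 18 I to Z libraries 19157 to 20759. The nuclear RNA MALAT1 lay at 175 to 561 RPKM in A to H and at 6.10 to 33.5 RPKM in I to Z, so the sets did not overlap in either measure. RPKM summed over all genes did not overlap either, at 174723 to 190258 in A to H and 212617 to 258766 in I to Z. Sums and differences between the sets given below are not adjusted for these totals. Depth, estimated from the smallest values, was 17800000 to 21400000 reads in A to H and 12900000 to 17800000 in I to Z. The breast cancer line's markers VIM, CD44, KRT18, KRT8, EGFR and AXL were present, and ESR1 and PGR lay at or near 0. ERBB2, also checked as a gene to be low, lay at 2.2 to 5.1 RPKM. Of the leukocyte, endothelial and fibroblast markers read, the endothelial KDR lay at 2.33 to 4.08 RPKM in NLS-AURKA libraries. KDR lay at 0.163 to 0.877 RPKM in the other libraries, and no other such marker exceeded 1.36 RPKM. Separate cultures are not stated for the libraries, and p-values measure the spread between these samples, which may be technical.

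AURKA itself, the kinase the constructs carry, was measured in every library, and reads of the endogenous gene and of the introduced copy cannot be told apart. Control lines had 34.0 to 68.9 RPKM. WT-AURKA c1 had 84.1 RPKM in D but 14.1 in O and 12.8 in P, and WT-AURKA c2 had 12.7 in Q and 14.3 in R. NES-AURKA c1 had 22.6, 37.0 and 36.2 RPKM in F, S and T, and NES-AURKA c2 had 36.7, 15.5 and 21.5 in A, U and V. NLS-AURKA c2 had 56.5, 104.6 and 38.4 RPKM in H, W and X, and NLS-AURKA c3 had 76.5, 38.8 and 40.3 in B, Y and Z. Library D thus stood apart from the other libraries of its line in the gene that the study manipulated. It was not alone in this: W (104.6 RPKM) differed from X (38.4) of the same line and letter set, and B (76.5) from Y and Z (38.8 and 40.3). W and B were left out only singly. Whether labels of libraries were exchanged was not tested, and values of WT-AURKA c1 and NES-AURKA c2 take the labels of D and A as given. Libraries A and D also stood apart from the other A to H libraries in the replication genes, as described next, and results were therefore also computed without both. The means of WT-AURKA c1, WT-AURKA c2 and NES-AURKA c2 then hold I to Z values only. Comparisons of line means have no letter-set term, so there that setting does not balance the letter sets.

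The promoters of these genes are shown because the group is known for shared control by E2F. RefSeq windows of the 250 bases before the transcription start (GRCh38.p14) were found for 39 of the 45 genes. They were searched on both strands for the E2F words TTTCGCGC, TTTGGCGC, TTTCCCGC and TTTGCCGC. Of the 39, 14 held a word (35.9%), against 3.399% of all genes with a window and 5.862% of those tested. The 14 were CDT1, GINS2, GMNN, LIG1, MCM3, MCM6, MCM7, ORC3, PCNA, POLA1, POLA2, POLE, RFC3 and TYMS. The NF-Y word CCAAT was present in 24 of 39 (61.54%), against 37.0% of all genes with a window and 42.08% of those tested. A match describes these letters and is neither a binding site nor a cause. The promoters printed were picked after values and matches were known: MCM6 (minus strand, chr2:135876444-135876693) holds 4 matches, MCM7 (minus strand, chr7:100101398-100101647) holds 2 and changed between constructs, PCNA (minus strand, chr20:5126623-5126872) was the most abundant member, and POLE (minus strand, chr12:132687343-132687592) moved against the other genes between the letter sets. MCM7 had 3 windows and PCNA 2, and the window with the most matches is printed. Bases read 5′ to 3′ toward the start, and capitals mark the E2F words, overlapping matches on the 2 strands being merged.
MCM6: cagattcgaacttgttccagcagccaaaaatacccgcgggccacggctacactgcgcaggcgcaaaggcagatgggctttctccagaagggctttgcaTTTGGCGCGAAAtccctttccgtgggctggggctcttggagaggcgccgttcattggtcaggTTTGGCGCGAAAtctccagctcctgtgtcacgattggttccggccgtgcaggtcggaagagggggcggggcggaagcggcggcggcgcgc
MCM7: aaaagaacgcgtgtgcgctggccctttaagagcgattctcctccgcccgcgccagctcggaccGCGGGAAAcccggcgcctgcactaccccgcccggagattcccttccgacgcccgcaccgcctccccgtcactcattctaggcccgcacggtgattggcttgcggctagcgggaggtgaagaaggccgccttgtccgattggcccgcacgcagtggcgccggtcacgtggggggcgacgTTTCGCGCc
PCNA: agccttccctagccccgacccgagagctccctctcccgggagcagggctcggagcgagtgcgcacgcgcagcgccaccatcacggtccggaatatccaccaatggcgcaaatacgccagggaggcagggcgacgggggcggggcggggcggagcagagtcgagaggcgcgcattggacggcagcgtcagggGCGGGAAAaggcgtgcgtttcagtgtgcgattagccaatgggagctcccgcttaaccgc
POLE: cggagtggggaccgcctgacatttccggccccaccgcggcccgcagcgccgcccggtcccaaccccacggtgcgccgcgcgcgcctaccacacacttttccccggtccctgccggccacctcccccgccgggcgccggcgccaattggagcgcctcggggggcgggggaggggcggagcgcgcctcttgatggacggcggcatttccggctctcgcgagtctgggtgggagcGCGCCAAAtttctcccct

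Levels spanned a wide range among the genes. By median over the 26 libraries, the highest were the clamp PCNA at 80.9 RPKM, the thymidine kinase TK1 at 79.0, the helicase subunit MCM7 at 61.6, the ribonucleotide reductase subunit RRM1 at 56.2 and the flap nuclease FEN1 at 49.5. The lowest medians were those of POLA2 at 2.20, GINS3 at 2.27 and POLE at 2.47 RPKM, which are a polymerase alpha subunit, a GINS subunit and the catalytic subunit of polymerase epsilon. Subunits of a complex did not share a level: within MCM2-7, the median was 10.6 RPKM for MCM5 and 61.6 for MCM7, and within ORC it was 3.14 for ORC1 and 13.8 for ORC3. None of the 1170 values of these genes was 0.

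The summed level of the 45 genes followed the letter set more than the line. The sum was 419.8 to 791.6 RPKM in A to H libraries (median 498.3) and 754.0 to 1231.3 RPKM in I to Z libraries (median 1005.3). In Empty, the sum in E was 44.8% of the mean of I and J, in NES-Empty the sum in C was 45.9% of the mean of K and L, and in NLS-Empty the sum in G was 49.8% of the mean of M and N. Among AURKA lines, the percentage was 37.3 for NES-AURKA c1 (F), 49.0 for NLS-AURKA c2 (H) and 50.3 for NLS-AURKA c3 (B), but 84.8 for WT-AURKA c1 (D) and 86.2 for NES-AURKA c2 (A). Libraries D and A therefore lay near the I to Z libraries of their lines, and the other 6 A to H libraries lay far below theirs.

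**Figure D1:**
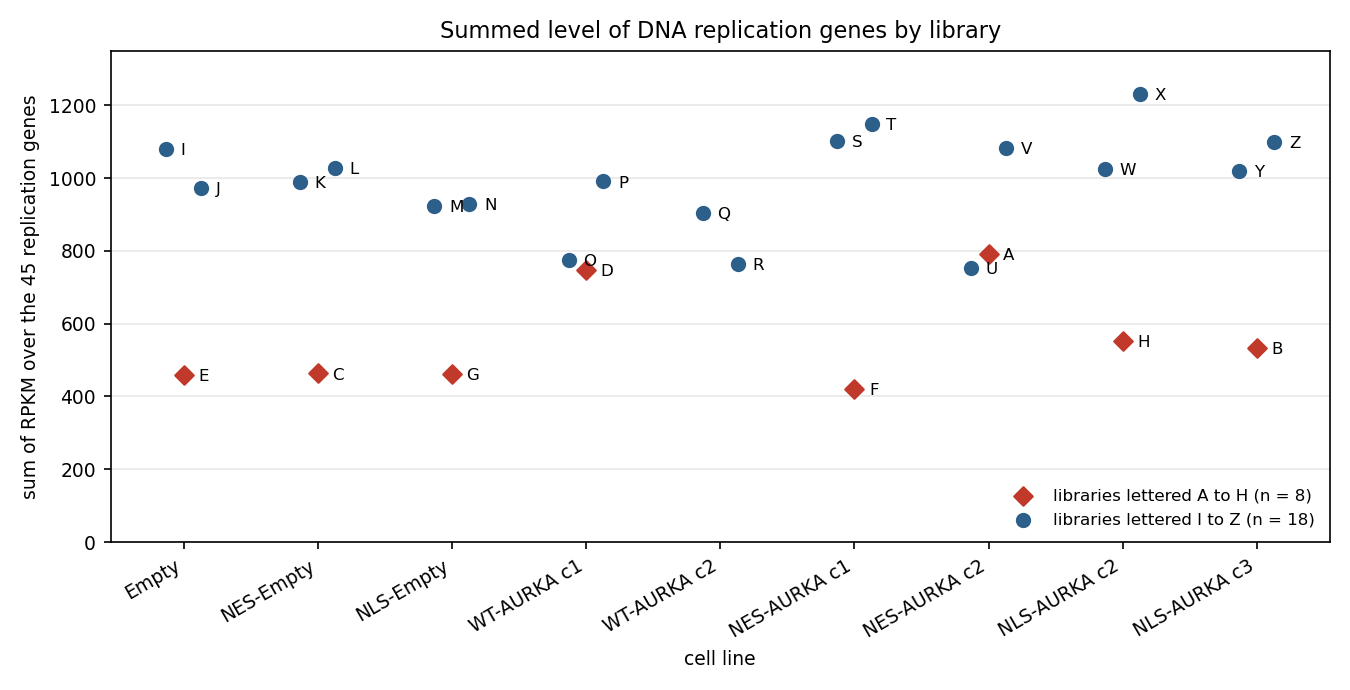
Sum of RPKM over the 45 replication genes (vertical axis) in each library, by cell line (horizontal axis), with red diamonds for libraries A to H and blue circles for I to Z, each marked by its letter. All A to H libraries but D and A lie at 419.8 to 553.2 RPKM, below every I to Z library, while D at 748.6 and A at 791.6 lie close to the lowest I to Z libraries.

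Gene by gene, 43 of 45 members in E lay below both I to Z libraries of Empty, where 56.5% of all genes tested did so. The same count was 43 in C (52.1% of all genes for NES-Empty), 42 in G (54.8%), 43 in F (56.6%), 39 in H (41.4%) and 41 in B (47.7%). In D only 18 members lay below both O and P (48.3% of all genes), and in A only 11 lay below both U and V (50.0%). The clamp loader's large subunit RFC1 and the polymerase POLE were above both I to Z libraries in all 8 lines.

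Between the letter sets, with the line as a block, 35 of the 45 genes were lower in A to H than in I to Z, 2 were higher and 8 did not pass the test (limma, Benjamini-Hochberg adjusted over all genes). Of all genes tested, 65.6% were called, 39.0% lower and 26.6% higher. The median log2 difference was −0.64 over the replication genes and −0.09 over all genes tested. All differences given are of log2(RPKM + 1), so that changes of low genes come out smaller than they were. Without libraries A and D, 41 were lower and 2 higher, with 71.6% of all genes called, and the median over the members was −0.87. Beside these differences stood the composition of the libraries: MALAT1 and NEAT1 were higher in every A to H library than in any I to Z library, and their part in the result was not tested.

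Nucleotide supply held the largest change. TK1, which salvages thymidine, lay at 17.7 to 46.3 RPKM (median 21.6) in A to H and at 64.2 to 128 RPKM (median 82.8) in I to Z. The 2 sets did not overlap, and the log2 difference was −1.75 ± 0.19 (SE, 8 lines, adjusted p = 2e-05). TYMS, which makes thymidylate, lay at 14.9 to 46.5 RPKM (median 28.5) in A to H and at 35.9 to 113 (median 50.3) in I to Z, and was lower by a log2 difference of −1.11 ± 0.19 (adjusted p = 0.0004). Its ranges overlapped, with D, A and H above the lowest I to Z library. The ribonucleotide reductase subunits RRM2 (−1.04) and RRM1 (−0.91) were lower too, which made 4 of 4 genes of this role.

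All 3 subunits of replication protein A were lower. The smallest, RPA3, lay at 2.68 to 7.36 RPKM (median 3.99) in A to H and at 7.54 to 16.5 (median 11.7) in I to Z, without overlap, a log2 difference of −1.27 ± 0.15 (adjusted p = 3.1e-05). RPA2 changed by −0.93 and RPA1 by −0.80.

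In the helicase, 5 of 6 MCM2-7 subunits were lower. MCM7 lay at 24.9 to 56.6 RPKM (median 26.9) in A to H and at 45.7 to 119 (median 69.1) in I to Z, a log2 difference of −1.14 ± 0.12 (adjusted p = 1.8e-05). The I to Z library W of NLS-AURKA c2, at 45.7, fell within the A to H range. MCM2 changed by −1.01, MCM5 by −0.90, MCM6 by −0.79 and MCM3 by −0.49, and MCM4 did not pass. Among activation factors, 4 of 6 were lower. The GINS subunit GINS2 lay at 1.40 to 4.13 RPKM (median 1.84) in A to H and at 3.51 to 8.54 (median 5.64) in I to Z, overlapping only through A and D on the A to H side, with a log2 difference of −1.14 ± 0.17 (adjusted p = 0.00018). CDC45 changed by −1.06, GINS1 by −0.53 and GINS3 by −0.43, while GINS4 and MCM10 did not pass.

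The loading factors were lower in 3 of 3 cases: GMNN (−0.86), CDC6 (−0.84) and CDT1 (−0.29). Of these, CDT1 lost its call when single libraries or lines were left out. In ORC, 3 of 6 were lower, namely ORC5 (−0.59), ORC4 (−0.43) and ORC3 (−0.42), and ORC1, ORC2 and ORC6 did not pass.

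Of the polymerases, all 4 genes of polymerase alpha and primase were lower, led by the primase subunit PRIM2 (−0.94), followed by PRIM1 (−0.70), POLA1 (−0.49) and POLA2 (−0.48). Of polymerases delta and epsilon, POLD2 and POLE2 (both −0.64) and POLD1 (−0.47) were lower and POLD3 did not pass. The clamp and its loader were lower for RFC2 (−1.04), RFC3 (−0.84), PCNA (−0.79), RFC5 (−0.76) and RFC4 (−0.61). FEN1, which trims lagging-strand flaps, was lower by −1.10, and the ligase LIG1 did not pass.

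The 2 genes that moved the other way were RFC1 and POLE. RFC1 lay at 9.75 to 15.9 RPKM (median 10.8) in A to H and at 5.54 to 10.7 (median 6.98) in I to Z, a log2 difference of 0.66 ± 0.08 (adjusted p = 2.8e-05). POLE lay at 2.34 to 4.51 RPKM (median 3.46) in A to H and at 1.64 to 3.43 (median 2.16) in I to Z, a difference of 0.34 ± 0.09 (adjusted p = 0.0058). Ranges of both genes overlapped between the sets, although within each line the A to H library was the highest.

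**Figure D2:**
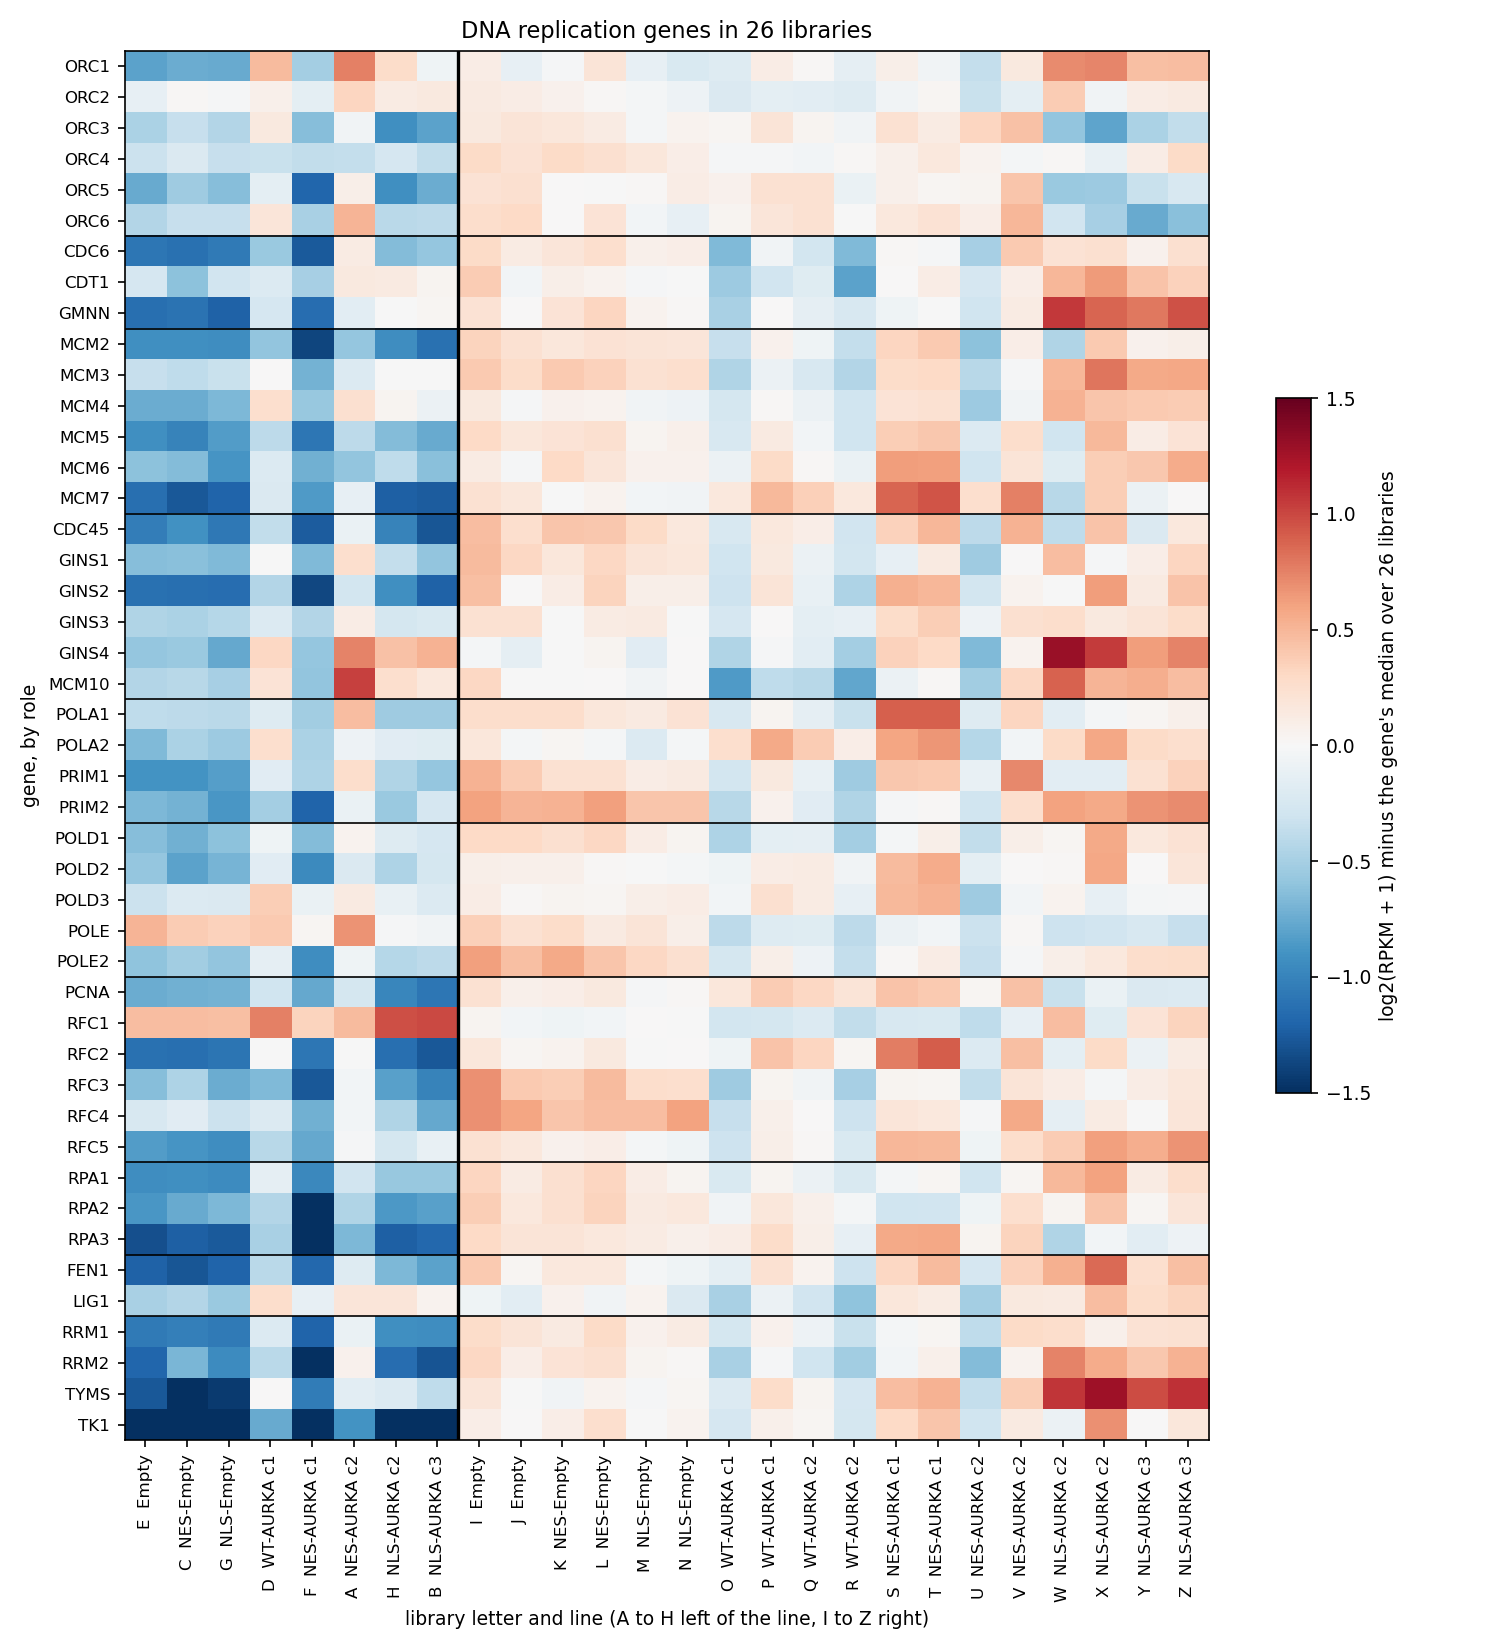
Log2(RPKM + 1) of each replication gene (rows, by role) minus the gene's median over 26 libraries, by library (columns, A to H left of the thick line and I to Z right), from blue (lower) to red (higher), with values beyond 1.5 drawn at the end colour. Columns E, C, G and F are blue for most genes, D and A are pale, and TYMS, GMNN and GINS4 are red in W, X, Y and Z.

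**Figure D3:**
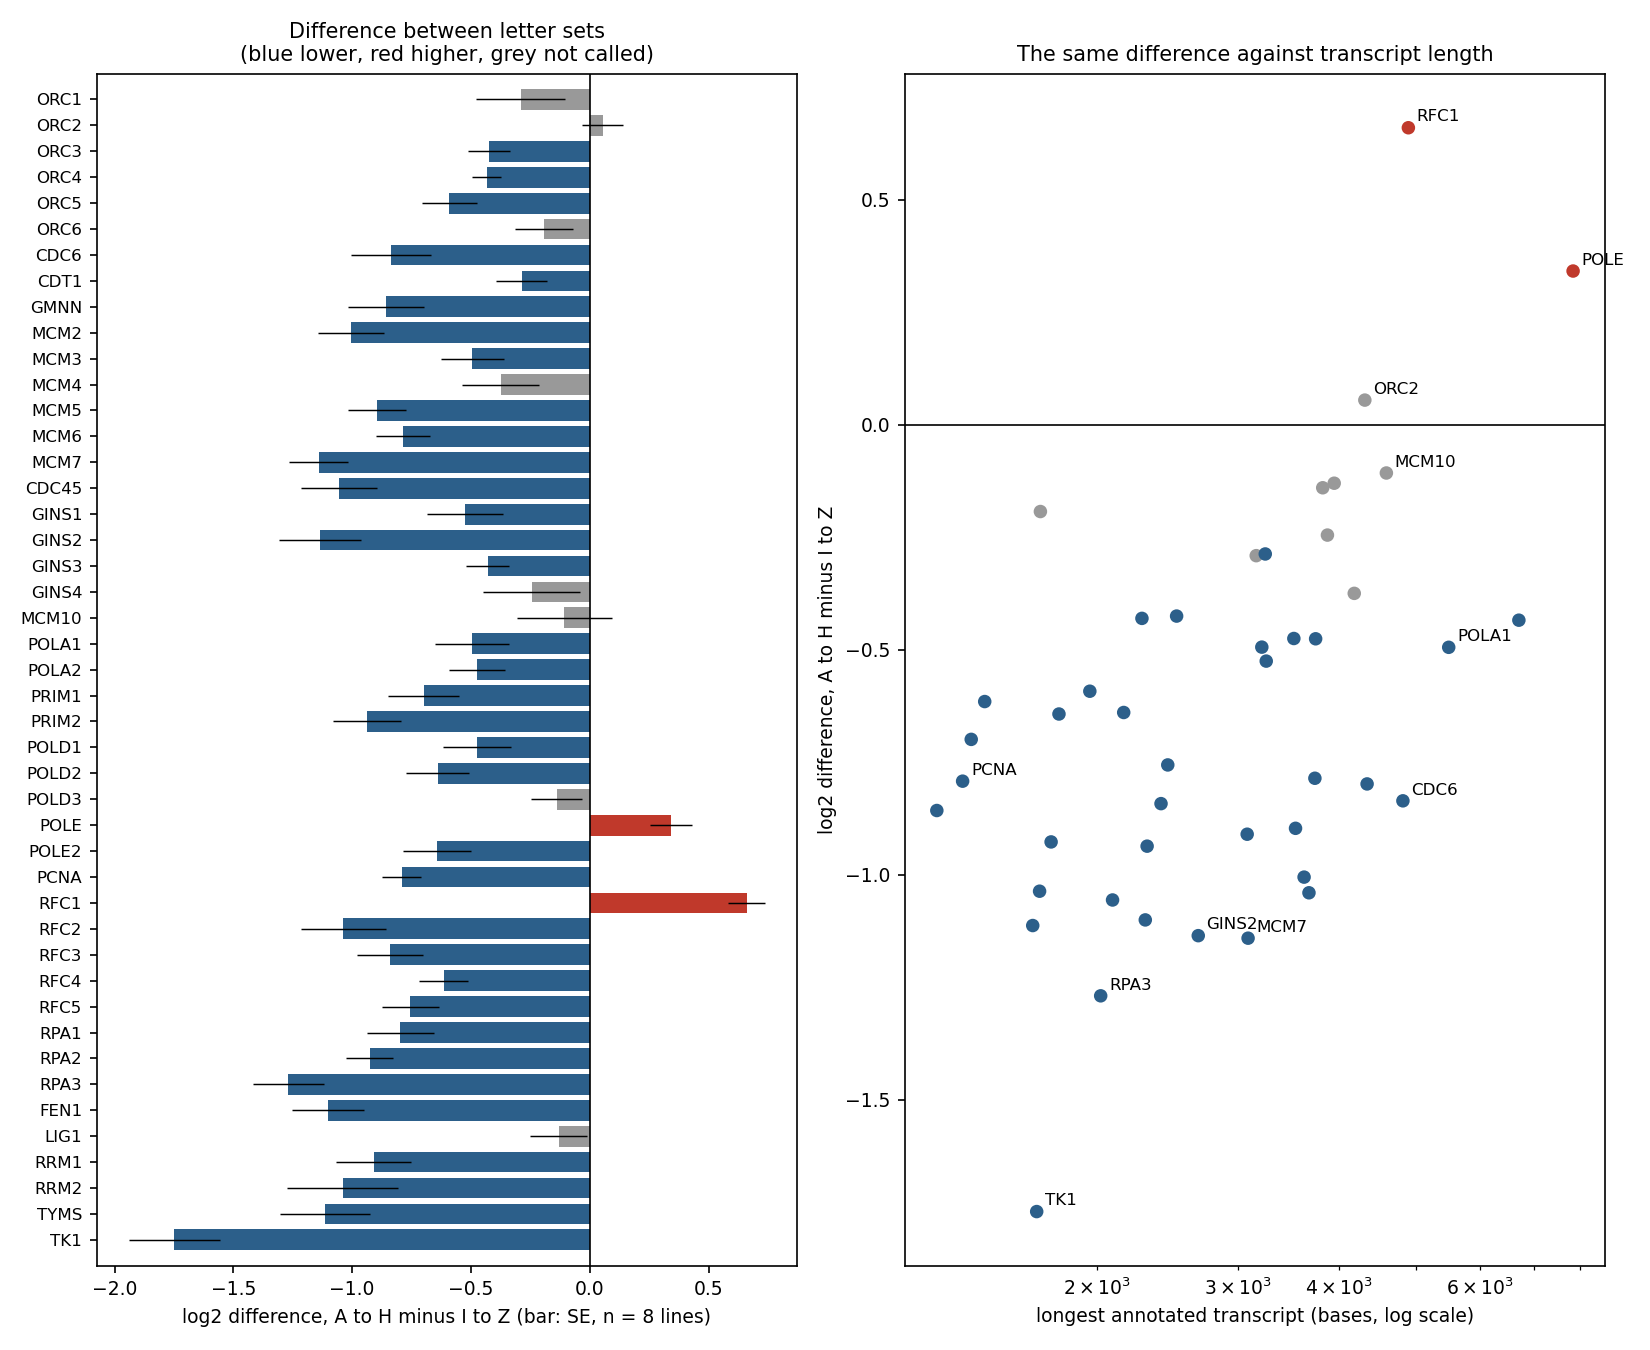
Left, log2 difference of A to H minus I to Z libraries for each replication gene (bars, with SE over 8 lines), blue for lower, red for higher and grey for not called; right, the same difference against the length of the longest annotated transcript in bases (log axis). RFC1 and POLE are above 0 and have long transcripts, and TK1 at −1.75 is the lowest.

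Transcript length moved with this difference, in the members and in all genes. This was described after values were seen, from the longest GENCODE release 29 transcript of each gene. Among the shortest transcripts (107 to 2498 bases) the median log2 difference was −0.43 over 3737 genes and −0.84 over 19 members. Among middle lengths (2499 to 4445 bases) it was −0.13 over 3738 genes and −0.48 over 20 members, and among the longest (4447 to 34526 bases) it was 0.20 over 3739 genes and −0.27 over 6 members. Across genes, which share the same libraries and are not replicates, Pearson's r with log10 length was 0.52 over the 45 members and 0.49 over 11214 genes. The part of length in the result was not tested. An E2F word in the promoter did not separate the members: the median was −0.64 for the 14 with a word, 12 of which were lower, and −0.64 for the 25 with a window and no word, 20 of which were lower.

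Other genes of the pathway were read from 4 further lists, with mitotic genes beside them. Of 30 other replisome and origin-firing genes, 12 were lower and 7 higher, with a median of −0.20. The lower ones included the ribonuclease H2 subunits RNASEH2A (−1.46) and RNASEH2C (−1.35) and the polymerase epsilon subunit POLE4 (−1.23). Of 15 other nucleotide synthesis genes, 12 were lower and 0 higher, with a median of −0.60, led by DTYMK (−1.36), SHMT2 (−1.24) and DUT (−1.15), whose products serve thymidylate and folate metabolism. Of 19 E2F and G1/S regulators, 9 were lower and 3 higher (median −0.22), among them CCNA2 (−1.15), E2F1 (−0.77) and TFDP2 (0.84). Of 12 genes for chromatin assembly at forks, 4 were lower and 2 higher (median −0.00), with the histone chaperones ASF1B (−1.06) and ASF1A (−0.65) and the histone mRNA binding protein SLBP (−0.63) lower. Of 20 mitotic genes, 12 were lower and 4 higher (median −0.65), and the largest changes were the rises of MKI67 (3.68), CENPF (2.60) and CENPE (2.48).

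The letter-set difference itself was compared between the 5 AURKA and 3 control lines that had both sets. None of the 45 genes passed (limma), where 0.175% of all genes did (0.00794% higher and 0.167% lower), and 7 had an unadjusted p under 0.05, all with a less negative difference in the AURKA lines. All 45 estimates were above 0, with a median of 0.29 on the log2 scale, but the median was 0.03 without libraries A and D. The largest were those of the origin subunit ORC1, at 0.71 ± 0.33 (adjusted p = 0.44), and the primase subunit PRIM1, at 0.71 ± 0.23 (adjusted p = 0.30).

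The AURKA arm was compared with the control arm as 6 against 3 lines, each line as the mean of its libraries. No letter-set term was fitted here, and the mean of WT-AURKA c2 holds I to Z values only, while every control mean holds both sets. Of the 45 genes, 2 were higher, 3 were lower and 40 did not pass, where 19.2% of all genes were called, 8.85% higher and 10.4% lower. The median log2 difference was 0.05 over the members and −0.02 over all genes. The 5 calls among 45 genes were a smaller share than that of all genes.

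TYMS was higher by 0.64 ± 0.19 (SE, adjusted p = 0.041). Its levels in the I to Z libraries of control lines were 52.6 and 45.8 RPKM (Empty), 44.4 and 47.9 (NES-Empty) and 45.6 and 47.1 (NLS-Empty), and in E, C and G they were 18.6, 14.9 and 16.4. In WT-AURKA they were 46.5 in D, 39.9 in O, 55.9 in P, 47.7 in Q and 38.7 in R. In NES-AURKA they were 21.8, 64.2 and 66.9 RPKM in F, S and T and 41.2, 35.9 and 60.0 in A, U and V. NLS-AURKA was the highest of the constructs in I to Z, with 98.1 and 113 in W and X and 92.1 and 99.9 in Y and Z. In A to H it had 39.7 and 35.3 in H and B, below D and A. The I to Z values of WT-AURKA overlapped those of the controls, U lay below them, and S, T, V and the 4 NLS-AURKA libraries lay above. Within I to Z the difference was 0.41 (adjusted p = 0.34), and within A to H it was 1.07 (adjusted p = 0.02). The other higher gene, POLA2, had a difference of 0.37 ± 0.12 (adjusted p = 0.05) and passed within neither set.

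The 3 lower genes act in leading-strand synthesis and clamp loading. POLE had 3.43, 3.04, 3.18, 2.80, 2.95 and 2.68 RPKM in the control libraries I to N and 3.94, 3.50 and 3.42 in E, C and G. In AURKA lines it lay at 1.64 to 2.50 in I to Z and at 2.34 to 4.51 in A to H. In I to Z every control library was above every AURKA library, while in A to H the sets overlapped through A and D. The difference was −0.39 ± 0.10 (adjusted p = 0.025), −0.44 within I to Z and −0.21 within A to H. The clamp loader subunits RFC4 (−0.38 ± 0.10, adjusted p = 0.025) and RFC3 (−0.33 ± 0.10, adjusted p = 0.039) followed, with −0.50 and −0.47 within I to Z. RFC4 lay at 18.7 to 22.8 RPKM in control I to Z libraries and at 10.6 to 15.7 in those of AURKA lines except V, which had 21.0. RFC3 lay at 16.9 to 23.1 in the former and 9.32 to 16.1 in the latter, so its groups did not overlap there.

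In I to Z alone, 4 members were lower (POLE, RFC4, RFC3 and POLE2, a polymerase epsilon subunit) and 0 higher, with 17.9% of all genes called. In A to H alone, 5 were higher (TYMS, GINS4, LIG1, MCM4 and ORC1) and 0 lower, with 12.3% called. The direction of the calls thus differed between the letter sets, and the test of that difference, above, passed for none of them. Each of the 5 calls over all libraries was lost when any 1 control line was left out. Calls of TYMS and POLA2 were also lost without E, C or G, and those of POLE, RFC4 and RFC3 without library U of NES-AURKA c2. Without A and D together, POLA2 and RFC4 were not called, while TYMS stayed higher and POLE and RFC3 lower (16.6% of all genes called). In that setting WT-AURKA c1, WT-AURKA c2 and NES-AURKA c2 hold I to Z values only, while the control lines keep both sets. TYMS was lower and POLE higher in A to H, so the setting itself moves both in the direction called. Genes that led their role without passing were GINS4 (0.45), ORC1 (0.44), MCM7 (0.39), GMNN (0.34), FEN1 (0.31) and RPA2 (−0.11). In the further lists, 1 of 30 replisome genes was higher (the fork protection factor TIMELESS, 0.42) and 0 were lower. ASF1B (0.70) was the 1 of 12 chromatin genes that passed. Of 15 nucleotide genes, 2 were higher, the kinase DCK (0.66) and DUT (0.32), and 2 lower, with IMPDH2 at −0.55. Of 19 regulators, 3 were higher (CDK2, 0.46, CCNA2, 0.38, and E2F1) and E2F7 was lower (−0.43). Of 20 mitotic genes, 2 were higher, ANLN and ASPM (both 0.65), and 0 lower.

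The constructs were then compared with each other. The shared spread also takes in the control lines, so it may understate the spread between clones. NLS-AURKA against NES-AURKA, 2 lines against 2 with a spread shared over 9 lines, called 16 of the 45 genes, 8 higher and 8 lower, where 33.2% of all genes were called, 19.1% higher and 14.1% lower. The count of members was thus near the share of all genes. The median was 0.06 over the members and 0.05 over all genes, so the genes moved in both directions rather than as a group.

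The licensing inhibitor GMNN was the most changed. In NLS-AURKA it had 36.1, 31.6, 29.9 and 33.5 RPKM in W, X, Y and Z and 16.8 and 17.3 in H and B. In NES-AURKA it had 16.1, 16.8, 13.5 and 18.5 in S, T, U and V and 7.09 and 14.9 in F and A. Within each letter set the NLS libraries were above all NES libraries, and the difference was 0.87 ± 0.11 (adjusted p = 0.00067), 0.98 within I to Z and 0.67 within A to H (adjusted p = 0.20). GINS4, a subunit of the helicase activator GINS, had 8.45, 7.02, 4.95 and 5.47 RPKM in W to Z and 4.23 and 4.53 in H and B. In NES-AURKA it had 3.91, 3.76, 1.45 and 2.99 in S to V and 1.59 and 5.48 in F and A, so it overlapped only through A. The difference was 0.74 ± 0.13 (adjusted p = 0.0025). TYMS, whose values are given above, was higher by 0.67 ± 0.10 (adjusted p = 0.0013), with 0.85 within I to Z and 0.31 within A to H. The other higher genes were MCM3 (0.54), PRIM2 (0.51), RFC1 (0.49), CDT1 (0.41) and MCM4 (0.36).

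MCM7 led the lower genes. It had 45.7, 79.8, 58.1 and 61.9 RPKM in W to Z and 25.7 and 25.3 in H and B, against 113, 119, 73.7 and 105 in S to V and 33.8 and 56.6 in F and A. Library X of NLS-AURKA overlapped U of NES-AURKA, and the other libraries of each set were apart. The difference was −0.75 ± 0.10 (adjusted p = 0.00075), with −0.74 within I to Z and −0.76 within A to H. The origin subunit ORC3 had 8.77, 7.56, 9.66 and 10.4 in W to Z and 6.81 and 7.50 in H and B, against 16.3, 15.0, 17.4 and 19.0 in S to V and 8.51 and 13.3 in F and A. No NLS library reached a NES library of its set, and the difference was −0.73 ± 0.13 (adjusted p = 0.0029). ORC6 (−0.66 ± 0.14, adjusted p = 0.0072), PCNA (−0.53), RFC2 (−0.51), POLA1 (−0.50), RPA3 (−0.39) and CDC45 (−0.32) were lower as well. Of the helicase subunits, 2 thus rose (MCM3, MCM4) and 1 fell (MCM7) between the same lines, and 3 of 6 did not pass.

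Within I to Z, 13 members were higher and 6 lower (39.3% of all genes called), and 13 of the 16 calls were kept, with CDC45, POLA1 and RFC2 lost. Within A to H, where there were 2 libraries a side, only RFC1 passed (8.21% of all genes called), and all 16 had the same sign. Without A and D, all 16 were kept and 6 more genes were higher (38.7% of all genes called). NES-AURKA c2 then holds I to Z values only, so these calls are mixed with the difference between the letter sets. GINS4, GMNN, MCM7, ORC3 and POLA1 kept their call whichever single library or line was left out. The count of higher genes was 5 without E, F or U, 14 without B and 15 without line NES-AURKA c2, and that of lower genes was 4 without H and 5 without B. TYMS and MCM3 were not called without F, ORC6 without line NLS-AURKA c3 and PCNA without H. In roles with no called gene the largest differences were POLE (−0.25) and LIG1 (0.24). In the further lists, 4 of 30 replisome genes were higher and 5 lower, led by the polymerase delta subunit POLD4 (−0.94), the kinase activator DBF4 (−0.87) and RNASEH2A (0.80). Of 12 chromatin genes, 5 were higher and 3 lower, led by TONSL (1.01), the maintenance methyltransferase DNMT1 (0.74) and ASF1A (−0.61). Of 15 nucleotide genes, 2 were higher, the pyrimidine enzyme CAD (0.92) and the purine enzyme GART (0.85), and 0 lower. Of 19 regulators, 5 were higher and 2 lower, led by E2F3 (0.82), CCND1 (0.64) and E2F6 (0.63), and of 20 mitotic genes, 2 were higher and 1 lower, namely NUF2 (0.58), NDC80 (0.45) and UBE2C (−0.57).

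NLS-AURKA against WT-AURKA, which shares the NLS lines with the last comparison, called 21 of 45 genes, 14 higher and 7 lower, where 36.1% of all genes were called, 18.7% higher and 17.4% lower. The median was 0.08 over the members. GINS4 was higher by 0.97 ± 0.13 (adjusted p = 0.00063), with 1.83, 2.83, 2.46 and 1.71 RPKM in O, P, Q and R and 3.80 in D of WT-AURKA. Every NLS library was above every WT library in its set. MCM10, a scaffold for helicase activation, had 10.5, 7.84, 8.08 and 7.58 RPKM in W to Z and 6.42 and 5.98 in H and B, against 2.47, 3.80, 3.67 and 2.64 in O to R and 6.21 in D. The I to Z libraries were far apart while D lay between H and B, and the difference was 0.93 ± 0.16 (adjusted p = 0.0021).

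All 3 loading factors were higher. GMNN had 11.7, 17.0, 15.2 and 14.1 RPKM in O to R and 14.0 in D of WT-AURKA, below every NLS library of the same set, and the difference was 0.83 ± 0.11 (adjusted p = 0.00072). CDT1 had 10.2, 11.4, 9.71 and 9.15 in W to Z and 7.73 and 7.19 in H and B, against 4.45, 5.52, 6.00 and 3.57 in O to R and 5.91 in D. It did not overlap in either set, and the difference was 0.77 ± 0.11 (adjusted p = 0.00075). The ATPase CDC6 was higher by 0.37 (adjusted p = 0.05). The remaining higher genes were TYMS (0.68), MCM3 (0.67), PRIM2 (0.59), RFC1 (0.57), LIG1 (0.52), RFC5 (0.46), MCM4 (0.37), POLD1 (0.36) and ORC2 (0.27).

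Lower genes were ORC3, PCNA (−0.65), MCM7 (−0.63), ORC6 (−0.62), ORC5 (−0.61), RFC2 (−0.52) and RPA3 (−0.50). ORC3 had 14.0, 15.9, 14.2 and 13.3 RPKM in O to R and 15.4 in D of WT-AURKA, all above every NLS library, and differed by −0.71 ± 0.13 (adjusted p = 0.0027). WT-AURKA c2 has no A to H library while every other line has, so its line mean holds I to Z values only. Within I to Z, 22 members were higher and 4 lower (40.1% of all genes called), and MCM7 (−0.32), RFC2 (−0.14) and RPA3 (−0.27) were not called. The values within I to Z were 1.21 for GINS4, 1.20 for MCM10, 1.13 for GMNN, 1.14 for TYMS, 0.93 for CDT1 and −0.61 for ORC3. Within A to H, where D alone stands for WT-AURKA, no member passed (3.4% of all genes called), 14 of the 21 had the same sign and 7, among them TYMS (−0.30) and MCM4 (−0.28), had the opposite one. Without A and D all 21 calls were kept (43.4% of all genes called). Both WT-AURKA lines then hold I to Z values only and both NLS-AURKA lines hold both sets. These calls are thus mixed with the difference between the letter sets. The count of higher genes was 9 without E, without O, without line WT-AURKA c2 or without line NLS-AURKA c2, and that of lower genes was 4 without B. CDC6 lost its call without 19 of the 26 libraries, 1 at a time, while GINS4, MCM10, GMNN, CDT1, TYMS, MCM3, PCNA and ORC3 kept theirs in all 26 such fits.

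In the further lists, 5 of 30 replisome genes were higher and 5 lower, led by TOP1 (−0.90), the checkpoint mediator CLSPN (0.87) and DBF4 (−0.86). Of 12 chromatin genes, 6 were higher and 2 lower, led by TONSL (1.22), ASF1A (−0.93) and DNMT1 (0.91). Of 15 nucleotide genes, 3 were higher and 0 lower, led by CAD (1.17) and GART (0.72). Of 19 regulators, 5 were higher and 3 lower, led by E2F3 (0.94), TFDP1 (−0.58) and RBL1 (−0.53). Of 20 mitotic genes, 2 were higher and 3 lower, led by MKI67 (1.22), HMMR (−0.60) and UBE2C (−0.50).

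NES-AURKA and WT-AURKA differed in 1 of the 45 genes, where 4.87% of all genes were called, 1.56% higher and 3.3% lower. POLA1, the catalytic subunit of polymerase alpha, had 13.4, 13.4, 5.73 and 8.67 RPKM in S to V and 4.40 and 9.59 in F and A, against 5.54, 6.93, 6.03 and 5.12 in O to R and 5.76 in D. The ranges overlapped through U and F. The SD of line means of POLA1 was 1.68 RPKM in NES-AURKA, 0.36 in WT-AURKA and 0.18 in the control lines, which enter the shared spread. The difference was 0.49 ± 0.10 (adjusted p = 0.03), 0.65 within I to Z (adjusted p = 0.13) and 0.16 within A to H, and the call was lost without A and D together and without 9 of the 26 libraries singly. Without D, which leaves WT-AURKA with I to Z libraries only, 6 members were higher and 1 lower, and without F, 4 were higher. Among genes that led their roles without passing, MCM10 (0.49), RPA2 (−0.37) and CDT1 (0.36) had the largest differences. Unadjusted p was under 0.05 for 7 members that were higher and 0 that were lower. Within I to Z, CDC6, CDT1 and MCM10 were higher (5.11% of all genes called), and within A to H none passed (0.0%). Of the further lists, 2 of 19 regulators and 1 of 20 mitotic genes were lower, and the other lists held no called gene.

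**Figure D4:**
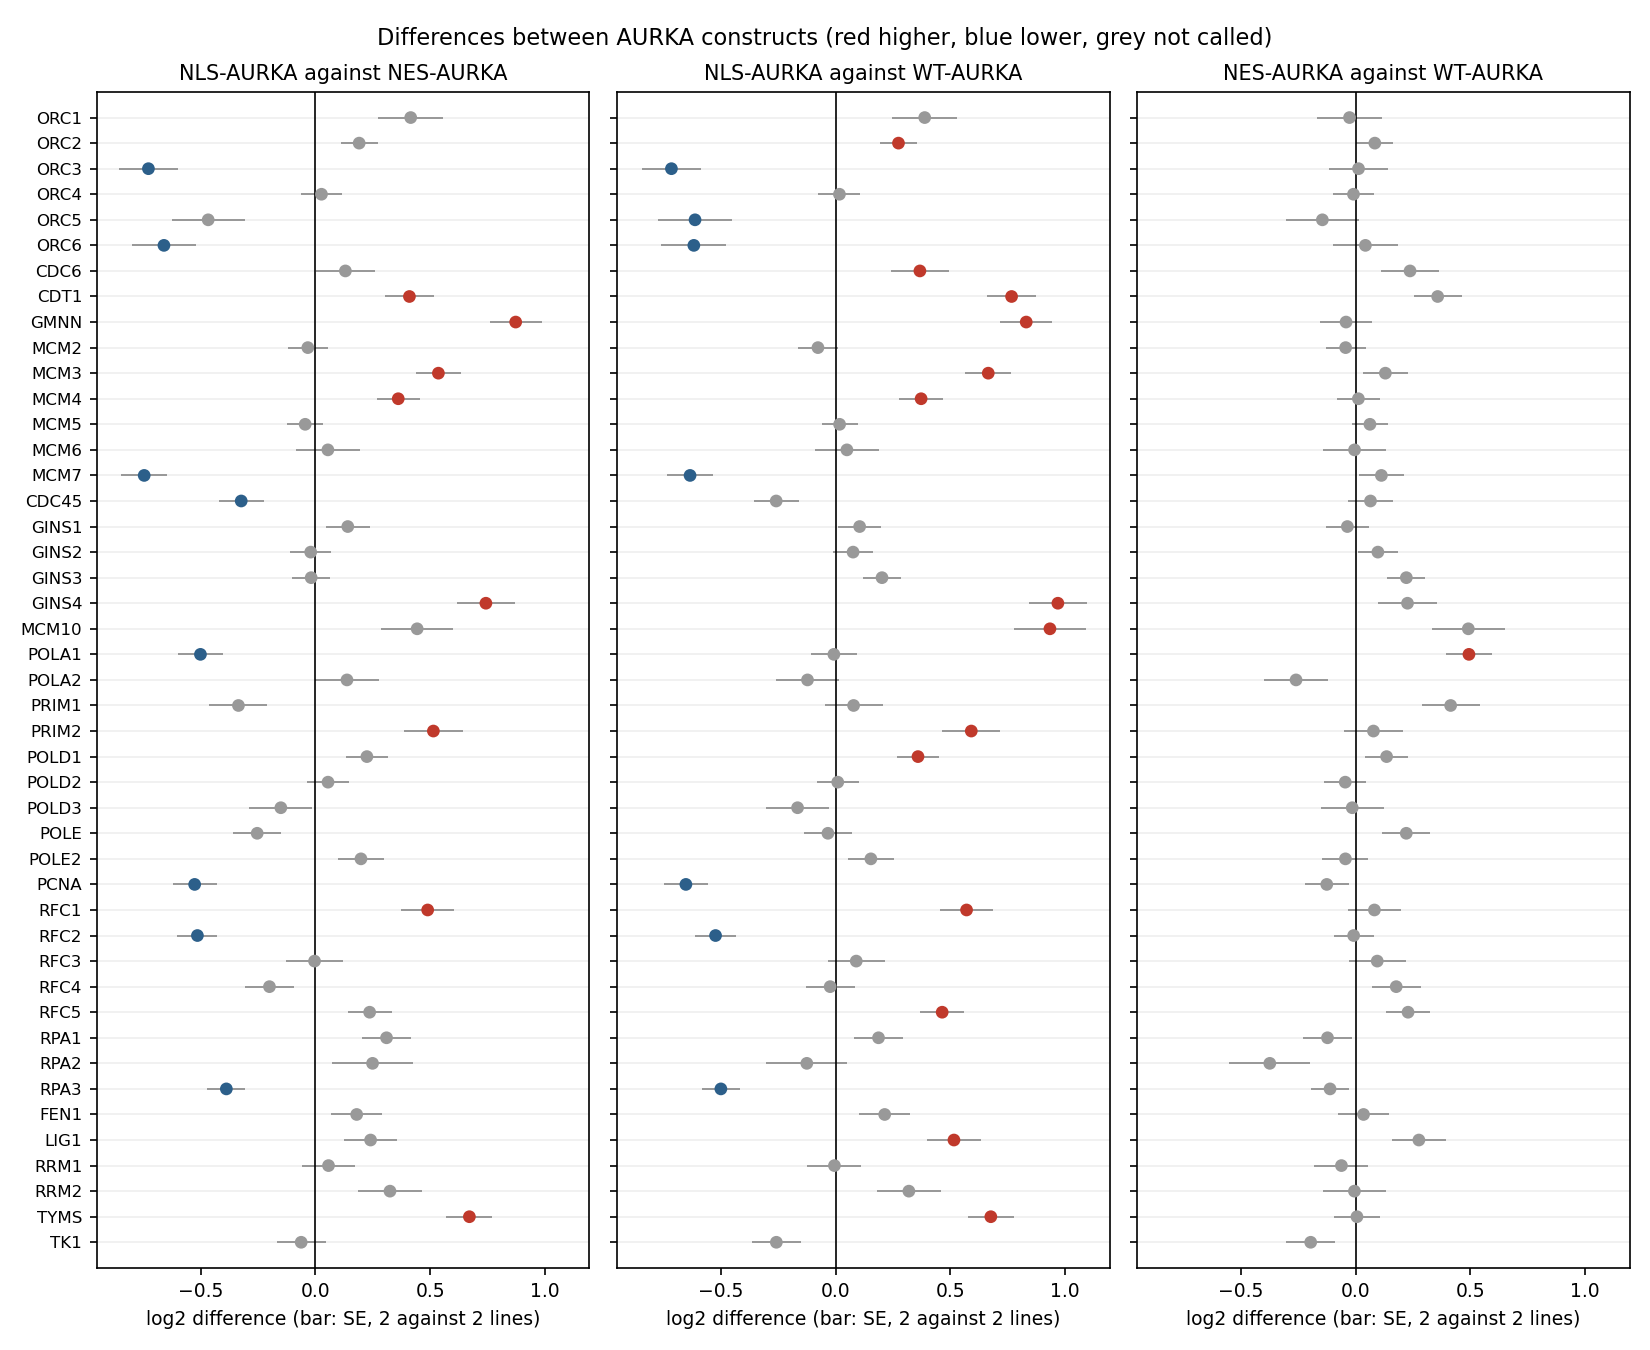
Log2 difference of each replication gene (rows, by role) between the AURKA constructs, as points with SE bars (2 against 2 lines), red for higher, blue for lower and grey for not called. GMNN, GINS4, TYMS and CDT1 are higher, and ORC3, ORC6, MCM7 and PCNA lower, in NLS-AURKA against both others, while the right panel holds 1 coloured point, POLA1.

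Single clones were set against the control line with the same tag, with a term for the letter set, so that the p-values cover only the spread between libraries of a line. In at least 1 clone, 17 members passed. WT-AURKA c1 had 1 higher (POLA2, 0.53) and 2 lower (RFC4, −0.51, and POLE, −0.43), with 30.9% of all genes called. The POLA2 call was lost within I to Z (0.34, adjusted p = 0.096) and without A and D (0.38, adjusted p = 0.076), and by leaving out D, P, E or J singly. WT-AURKA c2 had 0 higher and 5 lower, PRIM2 (−0.77), RFC3 and RFC4 (both −0.70), CDT1 (−0.62) and POLE (−0.53), with 24.2% called. Both WT-AURKA clones were thus lower in POLE and RFC4, where 11.5% of all genes were lower in both.

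In NES-AURKA c1, MCM7 was higher (0.73) and RPA2 lower (−0.68), with 35.1% of all genes called. In NES-AURKA c2 only MCM7 passed (0.71), with 26.3% called. Over all libraries MCM7 was thus higher in both clones, where 7.02% of all genes were. In c2 that call was lost within I to Z (0.48, adjusted p = 0.093) and without A and D (0.48, adjusted p = 0.062), and by leaving out A, V or C singly. There the called members of c2 were all lower, 6 within I to Z (34.2% of all genes called) and 9 without A and D (31.8%). In c1 MCM7 stayed higher in both, and lost its call without S or T. RPA2, the middle subunit of replication protein A, had 11.5, 30.9 and 31.0 RPKM in F, S and T, against 22.1, 45.1 and 48.2 in C, K and L of NES-Empty, each library below its counterparts of the same set.

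NLS-AURKA c2 had 8 higher, GINS4 (1.24), TYMS (1.19), GMNN (1.02), ORC1 (0.94), FEN1 (0.66), RFC5 (0.59), CDT1 (0.53) and POLA2 (0.49), and 3 lower, ORC3 (−0.63), ORC5 (−0.51) and POLE (−0.41), with 38.2% of all genes called, 20.2% higher and 18.0% lower. NLS-AURKA c3 had 5 higher, TYMS (1.04), GMNN (0.98), GINS4 (0.94), RFC5 (0.71) and RFC1 (0.36), and 2 lower, POLE (−0.42) and ORC3 (−0.40), with 33.9% called. Higher in both clones were 4 genes, GINS4, GMNN, RFC5 and TYMS, and ORC3 and POLE were lower in both, where 15.9% of all genes were higher and 13.6% lower in both. RFC1 in c3 was lost within I to Z and without 19 of the 26 libraries singly. Clones of a construct share their control line.

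Between the clones of a construct, WT-AURKA and NLS-AURKA each had 0 members called (limma, 0.0% of all genes, and 0 members at an unadjusted p under 0.05). Some of these libraries were closer to the other clone than to their own. Over tested genes, Pearson's r was 0.9957 for P with Q and 0.9956 for O with R. It was 0.9933 for O with P, 0.9947 for Q with R, 0.9940 for O with Q and 0.9921 for P with R. In NLS-AURKA, W and X were less alike than W and Y or X and Z, while Y and Z were close (0.9943). The spread within lines thus limits this test. NES-AURKA c2 against c1 had 2 called members, RPA2 (0.65) and ORC5 (0.54), with 18.4% of all genes called, 7.3% higher. Both calls were lost within I to Z, RPA2 at 0.39 (adjusted p = 0.056) and ORC5 at 0.18 (adjusted p = 0.33). There 0 members were higher in c2 and 10 were lower, GINS4, MCM3, MCM4, MCM6, POLA1, POLA2, POLD2, POLD3, RFC2 and RPA3, with 26.1% of all genes called. Without A and D, RPA2 was higher, ORC5 was not called and MCM3, MCM4, POLA1, POLA2 and POLD3 were lower (20.2% of all genes called).

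The clones' counts moved with the libraries used. In I to Z alone, WT-AURKA c1 had 0 members higher and 11 lower (38.0% of all genes called), WT-AURKA c2 had 0 and 17 (39.7%), and NES-AURKA c1 had 8 and 3 (42.0%). NLS-AURKA c2 had 13 higher and 5 lower there (45.1%), NLS-AURKA c3 had 6 and 4 (38.0%), and 34 members passed in at least 1 clone. Without A and D, WT-AURKA c1 had 0 higher and 10 lower (34.3%), WT-AURKA c2 had 0 and 18 (36.0%), and NES-AURKA c1 had 7 and 6 (44.1%). NLS-AURKA c2 then had 13 and 4 (47.4%) and NLS-AURKA c3 had 14 and 4 (42.6%). Of the calls against control lines over all libraries, those kept whichever single library was left out were RPA2 in NES-AURKA c1, GINS4, TYMS, GMNN, ORC1 and ORC3 in NLS-AURKA c2, and TYMS, GMNN and RFC5 in NLS-AURKA c3.

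The differences between constructs were shared with genes nearby on the chromosome. This was looked at after values were seen, with the 25 tested genes on either side of each member in RefSeq order as its neighbours. For NLS-AURKA against NES-AURKA, Pearson's r between a member's difference and the median of its neighbours was 0.81 over the 45 members (Spearman 0.75), and 14 of the 16 called members had the sign of their neighbours' median. Around GMNN, 47 of 50 neighbours were above 0 with a median of 0.63, and around TYMS 25 of 27 were, with a median of 0.45. Below 0 were 49 of 50 neighbours of RFC2, 47 of ORC3, 46 each of MCM7 and PCNA and 45 of POLA1. Around GINS4 the median was 0.03, so its difference of 0.74 was not shared with its neighbours. Members share libraries, and some share neighbours, so r is a description. For no comparison was the same share or r computed over all genes tested. Whether sharing with neighbours is particular to the replication genes was therefore not tested. Whole chromosomes differed too: among those holding members, the median over tested genes ran from −0.39 (X) to 0.50 (chromosome 18).

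For NLS-AURKA against WT-AURKA, r was 0.71 (Spearman 0.56), and 14 of 21 called members had the sign of their neighbours. It was 0.62 for NES-AURKA against WT-AURKA, 0.23 for the AURKA arm against controls and 0.13 for the letter sets. In single clones, all 50 neighbours of MCM7 were above 0 in NES-AURKA c1 against NES-Empty, with a median of 0.63 beside 0.73 for MCM7. In the same clone 41 of 50 neighbours of RPA2 were below 0, and 43 and 45 of 50 neighbours of RFC4 were below 0 in WT-AURKA c1 and c2 against Empty.

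**Figure D5:**
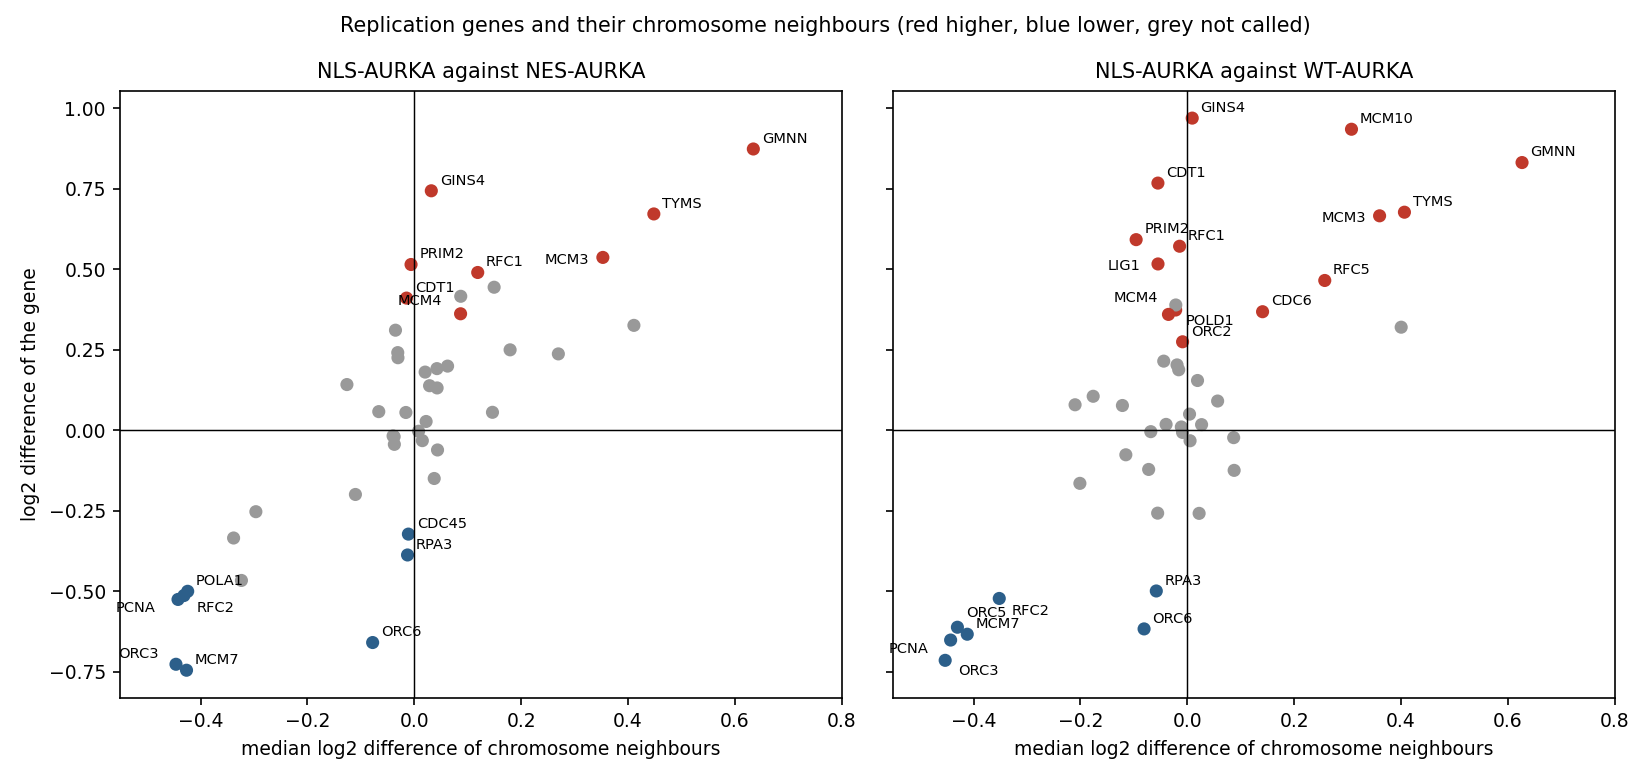
Log2 difference of each replication gene (vertical axis) against the median log2 difference of the 25 tested genes on either side of it (horizontal axis), for NLS-AURKA against NES-AURKA (left) and against WT-AURKA (right), red for higher, blue for lower and grey for not called. GMNN and TYMS at the upper right and MCM7, ORC3 and PCNA at the lower left have neighbours of the same sign, while GINS4 stands at 0.74 and 0.97 above neighbours near 0.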

How the data were processed

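RNA was measured in 26 libraries of 9 MDA-MB-231Luc lines. Per the labels' protocols, RNA was extracted with RNeasy columns, libraries were made with a KAPA mRNA kit and reads came from a HiSeq instrument. The tools Partek, SAMtools and HISAT2 and the build hg19 are named per the submitters' processing notes. For versions, annotation, strand and multiply mapped reads, the sources used here give nothing. Expression was read from 1 deposited table in RPKM, made by the authors. Its unit was read from the values, since whole reads per kilobase fit them, and depth was estimated from the smallest steps. No column of the table was without a sample (0 columns).

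Values were taken as log2(RPKM + 1), and genes reaching 1 RPKM in at least 2 libraries were kept. Comparisons used limma 3.58.1 with trend in R 4.3.3, Benjamini-Hochberg adjusted over the 12589 genes and called at an adjusted p under 0.05. Arms and constructs were fitted on 1 mean per line, the letter sets on 8 lines with the line as a block, and clones on single libraries with a letter-set term. The procedure was tested on simulated data.

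The members and lists were chosen with earlier results of these data known. Members were named where called, or as the largest difference of their role, and from each list up to 3 called genes, 1 of which is not reported here. Alternatives were other pseudocounts and filters, median centring, each letter set alone, leaving out libraries A and D, and leaving out each library or line.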

Additional observations from a re-analysis of the deposited data

Results flagged for a closer look

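Within the 6 AURKA lines, 3 of the 45 replication genes had 1 line far from the others in mean log2(RPKM + 1). Chance sets apart about 1 in 20 such groups, and the count here was near that share. The mean of WT-AURKA c2 holds I to Z values only. RFC4 was at 4.053 in NES-AURKA c2 (13.3, 13.6 and 21.0 RPKM in A, U and V), and the other lines lay between 3.684 and 3.758. RPA2 was at 4.546 in NES-AURKA c1, and the others lay between 5.089 and 5.315. FEN1 was at 5.889 in NLS-AURKA c2, and the others lay between 5.527 and 5.627.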

How the results depend on the processing

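Libraries of different lines could not be paired, since no 2 lines share a letter; the letter sets were compared with the line as a block. When 1 library or line was left out at a time, AURKA against control lines called 0 to 4 members higher, 0 to 4 lower and 902 (without line NLS-Empty) to 2672 of all genes; NLS-AURKA against NES-AURKA 5 to 15, 4 to 12 and 2201 (without line NLS-AURKA c2) to 5453; NLS-AURKA against WT-AURKA 9 to 18, 4 to 9 and 2452 (again without line NLS-AURKA c2) to 6257; NES-AURKA against WT-AURKA 0 to 6, 0 to 2 and 20 (without line WT-AURKA c2) to 2704 (without D). The letter sets gave 2 higher and 34 to 38 lower, with 7560 to 8689 genes in all, and their difference between arms 0 and 0, with 6 (without line NES-Empty) to 71 genes (without line NES-AURKA c1). At least 1 clone called 13 to 25 members and clone pairs 1 (without V) to 9 (without U).

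Within A to H, AURKA against control lines called 5 members higher, 0 lower and 1472 genes against 2, 3 and 2423; NLS-AURKA against NES-AURKA 1, 0 and 979 against 8, 8 and 4180; NLS-AURKA against WT-AURKA 0, 0 and 405 against 14, 7 and 4547; NES-AURKA against WT-AURKA 0 and 0 genes against 1 and 613. Fewer libraries enter there. In all, 7 members reversed in NLS-AURKA against WT-AURKA: CDC6 (−0.06), LIG1 (−0.15), MCM10 (−0.0031), MCM3 (−0.0078), MCM4 (−0.28), POLD1 (−0.16) and TYMS (−0.30). Within I to Z, these comparisons called 0 higher (arms), 13 (NLS against NES), 22 higher and 4 lower (NLS against WT) and 3 higher (NES against WT), and clones 34 in place of 17 and clone pairs 10 in place of 2. Without A and D, the counts were 1 higher (arms), 14 higher (NLS against NES), 239 genes in place of 22 (letter-set difference between arms), 36 (clones) and 6 (clone pairs). The arm and construct counts then rest on line means with unlike shares of the letter sets.

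With no filter the counts were 0 higher and 1 lower (arms), 0 higher (NES against WT), 49 genes (letter-set difference between arms), 10 (clones) and 1 (clone pairs). A filter of 5 RPKM gave 1 higher for the arms and for the letter sets and 10 genes for the letter-set difference between arms, and a pseudocount of 0.1 gave 7 there. Centring gave 4 for clone pairs. With no letter-set term, clones gave 2 and clone pairs 0. The cause of these changes was not tested. With 10 neighbours on either side, chosen after seeing the data, r was 0.82 for NLS-AURKA against NES-AURKA and 0.72 against WT-AURKA. Estimated depth of 12900000 to 21400000 reads limits low genes such as GINS3 and POLA2 most.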
